A study of Homo sapiens with 44 samples.

Results

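The 40 genes described here encode proteins that copy DNA or that divide the chromosomes. They were taken as a list of gene symbols, matched to Ensembl identifiers through GENCODE release 29 and read from the table of estimated counts. All 40 were found, and all 40 passed the filter on low counts that left 22955 genes of the whole series for testing. By role they form 19 replication genes (6 transcription factors and G1/S cyclins, 9 genes of origin licensing and the helicase, 4 genes of the sliding clamp and the nucleotide supply) and 21 mitosis genes. The mitosis genes are 2 chromosome proteins, 6 mitotic entry kinases and cyclins, 4 genes of the spindle checkpoint and the anaphase-promoting complex (APC/C), 5 centromere and chromosomal passenger genes, and 4 spindle motor and cytokinesis genes.

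RNA came from 44 culture wells of the established human embryonic stem cell line H1, with 1 library per well and 12 groups. The pluripotent group grew on laminin LN-521 alone, and every other group on LN-521 with LN-221. Day 0 cells were in Nutristem medium, and days 1 and 3 in RPMI 1640 with B27 lacking insulin plus CHIR99021, an inhibitor of the kinase GSK3 given at day 0. Day 5 cells had IWP2, an inhibitor of Wnt production given at day 3, in the same basal medium, and days 7 and 9 had that medium with neither inhibitor. Days 11, 14, 20, 30 and 90 were in RPMI 1640 with CTS B-27 Supplement. The labels give 3 wells each for pluripotent cells and days 0, 1, 3, 14, 20, 30 and 90, and 5 wells each for days 5, 7, 9 and 11. The series text states triplicates for day 11, where the labels hold 5 wells, and all 5 were used. All wells come from 1 line, and no label says that wells of a group were separate differentiations, so p-values measure only the spread between these wells, which may be technical.

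Values per well are in CPM (counts relative to the total of the library), scaled between libraries by the trimmed mean of M values, and are listed in the order of the well numbers. Those numbers are 1, 2 and 3 for pluripotent cells and days 0, 1, 3 and 20, 1 to 5 for day 5, and 1, 2, 3, 4 and 10 for days 7 and 9. They are 1, 2, 5, 6 and 7 for day 11, 2, 3 and 6 for day 14, 1, 3 and 10 for day 30, and 2, 4 and 5 for day 90. A gene is said to have risen or fallen where the quasi-likelihood test of edgeR, run on all 22955 genes, gave a Benjamini-Hochberg adjusted p under 0.05 and a log2 fold change of at least 1 in size. All groups share 1 estimate of spread per gene. Differences between wells at late days therefore also enter the standard errors and p-values of comparisons between early days.

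A dividing cell copies its DNA once in S phase and parts the copies in mitosis. In G1 phase the licensing factors CDC6 and CDT1 load the MCM helicase at origins, E2F transcription factors then switch on the replication genes, and cyclin E helps to start S phase. Later, the factors MYBL2 and FOXM1 act on genes of mitosis, cyclin B with CDK1 drives entry into mitosis, and the APC/C with CDC20 ends it. Promoters of S phase genes often carry E2F sites, while promoters of mitotic genes often carry a CCAAT box and a cell cycle genes homology region (CHR). Pluripotent stem cells cycle rapidly with a short G1 phase, and heart muscle cells largely leave the cell cycle as they mature.

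Promoter stretches are shown because the replication and mitosis genes differ in these motifs. Whether the motifs bear on the RNA levels given below was not tested. Each runs over the 160 bases that end just before the RefSeq gene start (GRCh38.p14), written 5′ to 3′ on the gene's strand, for 8 genes whose GENCODE model begins at most 30 bases upstream of that start. Capitals mark matches on either strand to an E2F site (TTTCCCGC, TTTGGCGC, TTTCGCGC or TTTGCCGC), to a CHR (TTTGAA or TTTAAA) or to a CCAAT box (CCAAT), and overlapping matches run together. The first 4 are replication genes and the last 4 mitosis genes.
PCNA (reverse strand, chr20:5126623-5126782): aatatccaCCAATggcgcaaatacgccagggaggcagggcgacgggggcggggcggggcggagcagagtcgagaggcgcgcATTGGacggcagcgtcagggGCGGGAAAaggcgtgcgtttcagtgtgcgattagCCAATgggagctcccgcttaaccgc
MCM6 (reverse strand, chr2:135876444-135876603): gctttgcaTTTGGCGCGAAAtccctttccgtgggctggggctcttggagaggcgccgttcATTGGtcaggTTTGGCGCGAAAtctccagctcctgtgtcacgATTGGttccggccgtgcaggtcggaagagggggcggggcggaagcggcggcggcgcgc
E2F1 (reverse strand, chr20:33686386-33686545): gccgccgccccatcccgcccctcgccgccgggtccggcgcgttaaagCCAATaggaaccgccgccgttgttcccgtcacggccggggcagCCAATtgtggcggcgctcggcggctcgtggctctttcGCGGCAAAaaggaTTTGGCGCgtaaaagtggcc
E2F2 (reverse strand, chr1:23531234-23531393): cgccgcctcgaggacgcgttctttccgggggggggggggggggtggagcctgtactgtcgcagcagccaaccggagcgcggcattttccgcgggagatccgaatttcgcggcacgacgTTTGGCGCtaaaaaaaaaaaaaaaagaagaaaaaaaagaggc
MKI67 (reverse strand, chr10:128126424-128126583): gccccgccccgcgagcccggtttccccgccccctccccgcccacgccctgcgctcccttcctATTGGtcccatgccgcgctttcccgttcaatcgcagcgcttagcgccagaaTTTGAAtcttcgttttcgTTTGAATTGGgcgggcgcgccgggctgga
CDC20 (forward strand, chr1:43358821-43358980): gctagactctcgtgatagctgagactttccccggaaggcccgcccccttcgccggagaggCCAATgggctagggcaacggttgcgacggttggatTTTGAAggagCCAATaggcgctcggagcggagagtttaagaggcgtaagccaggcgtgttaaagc
KIF11 (forward strand, chr10:92592970-92593129): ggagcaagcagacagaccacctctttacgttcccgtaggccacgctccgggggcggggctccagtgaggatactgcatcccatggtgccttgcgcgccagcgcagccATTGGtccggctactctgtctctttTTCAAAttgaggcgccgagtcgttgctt
CENPF (forward strand, chr1:214603035-214603194): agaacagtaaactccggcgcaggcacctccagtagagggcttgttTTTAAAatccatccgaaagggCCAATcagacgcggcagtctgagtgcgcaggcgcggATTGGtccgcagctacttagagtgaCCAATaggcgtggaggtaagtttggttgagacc
The replication stretches shown hold E2F matches and no CHR match, and the mitosis stretches shown hold CHR matches and no E2F match. Not every gene that meets the limit on the start is shown: RRM1 and CDK1 also meet it. The window of RRM1, a replication gene, holds no E2F match, so this clean split belongs to the stretches printed. In the MKI67 stretch the second CHR match and a CCAAT match on the other strand share a base.

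Of the 40 genes, 33 had a promoter window in the RefSeq table, from 250 bases before to 50 bases after the start. An E2F match lay in 11 of 15 replication windows and in 2 of 18 mitosis windows (CDK1 and CENPA), against 3.33% of the 27305 windows of all genes. The replication windows without one were those of CCNE1, MYBL2, RRM1 and RRM2. A CHR match lay in 3 of 15 replication windows (CCNE1, RRM1 and RRM2) and in 15 of 18 mitosis windows, against 24.3% of all windows. The mitosis windows without one were those of AURKB, BUB1 and CCNA2. CCAAT matches lay in 9 of 15 replication and 15 of 18 mitosis windows, against 35.7% of all. CCAAT and CHR matches occurred together in 2 of 15 replication and 12 of 18 mitosis windows, against 9.49% of all windows. A match describes letters in a window and does not show binding.

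Total estimated counts were 6937136 to 33498022 per library and RNA integrity numbers 7.4 to 10, over 5 sequencing lanes. A count of 3 in a library, the smallest level taken as seen, is 0.0896 to 0.432 CPM, below the level of each of the 40 genes in every well. Summed levels of 5 pluripotency markers went from 4847 to 5121 CPM in pluripotent wells to 63.0 to 86.0 CPM at day 9, while summed levels of 8 cardiomyocyte markers went from 100.1 to 177 CPM to 10157 to 24300 CPM, all 8 with a group mean of at least 1 CPM in every group. Wells are mixtures: markers of fibroblasts and epicardium, of smooth muscle, of endothelial cells and of endoderm and liver were also found. Day 5 was not their start. Mean sums in pluripotent cells were 89.1 CPM for fibroblasts and epicardium, 86.9 CPM for smooth muscle and 73.5 CPM for endothelial cells. The endoderm and liver sum was 119 CPM at day 3, 444 CPM at day 5 and 50.6 CPM at day 90. Fewer cycling cells cannot be told apart from less RNA of the 40 genes per cycling cell. Cycling cells were marked by MKI67 and TOP2A, both above 1 CPM in every well. Overlapping neighbours make some members uncertain, and the use of strand in counting is not given in the sources used here. CCNE2 is the most uncertain, with INTS8 on the other strand holding 14.7 times its counts. GINS2 (GSE1, 2.38 times), TYMS (ENOSF1, 0.85 times) and FOXM1 (RHNO1, 0.76 times) also overlap a gene with many counts on the other strand. CENPA overlaps SLC35F6 (1.79 times) on the same strand, so the use of strand would not settle its counts.

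The RNA of the 40 genes was highest around the start of differentiation, and the day 9 sum was 31.1% of the day 0 sum. The summed level was 7573 ± 187 CPM in pluripotent cells (SD, n = 3), 6134 ± 49.2 at day 0, 7023 ± 146 at day 1 and 5989 ± 450.1 at day 3. It was 3601 ± 262 at day 5 (SD, n = 5), 3380.3 ± 423 at day 7 and 1908 ± 47.9 at day 9, which are 58.7%, 55.1% and 31.1% of the day 0 mean. The wells of days 5 and 7 overlapped, and those of days 0, 5 and 9 did not. From day 11 on the group means were 1838 ± 1023 at day 11 (SD, n = 5), 1941 ± 803 at day 14 (SD, n = 3), 1962 ± 1742 at day 20, 1397 ± 338 at day 30 and 1746 ± 359.8 at day 90. Those means say little at days 11, 14 and 20, where wells of a group differed by up to 4.50 times. Of the 40 genes, 21 had their highest group mean in pluripotent cells, 11 at day 1, 7 at day 3 and 1 (CCNE2) at day 20. The lowest group mean lay at day 30 for 23 genes, at day 9 for 8, at day 90 for 4, at day 11 for 3, and at day 0 (CCNE2) and day 1 (TYMS) for 1 each.

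**Figure D1:**
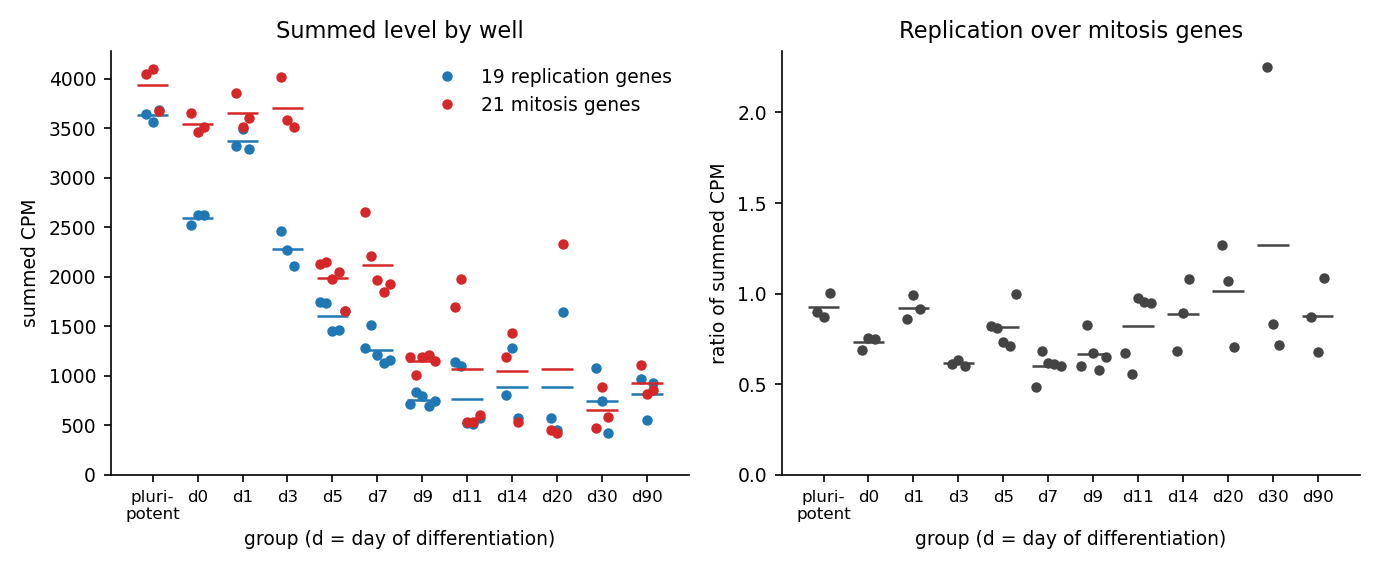
Summed CPM of the 19 replication and 21 mitosis genes in each of the 44 wells (left) and the ratio of the replication sum to the mitosis sum (right), by group, with horizontal lines at group means. Both sums drop from day 3 to day 9 with wells close together, then spread out at days 11, 14 and 20, and day 30 well 1 has a ratio of 2.25.

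The sums of replication and of mitosis genes were also taken apart, with no test of their difference. The replication sum was 3633 ± 61.2 CPM in pluripotent cells, 2590.2 ± 55.4 at day 0, 3367 ± 107 at day 1 and 2282 ± 181 at day 3 (SD, n = 3 each). Over the same groups the mitosis sum was 3940.1 ± 236, 3544 ± 101, 3656 ± 182 and 3707 ± 276 CPM. The replication sum at day 1 thus lay above both neighbours without overlap, while the mitosis sums of days 0, 1 and 3 overlapped. The ratio of the sums by well was 0.691, 0.756 and 0.748 at day 0, 0.860, 0.994 and 0.914 at day 1 and 0.614, 0.633 and 0.600 at day 3. The plot of sums by well shows this swing, after which the ratio at day 9 was 0.600, 0.672, 0.577, 0.653 and 0.829. A sum of CPM weights long and abundant genes more, and the ratio compares sums of counts, not molecules.

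**Figure D2:**
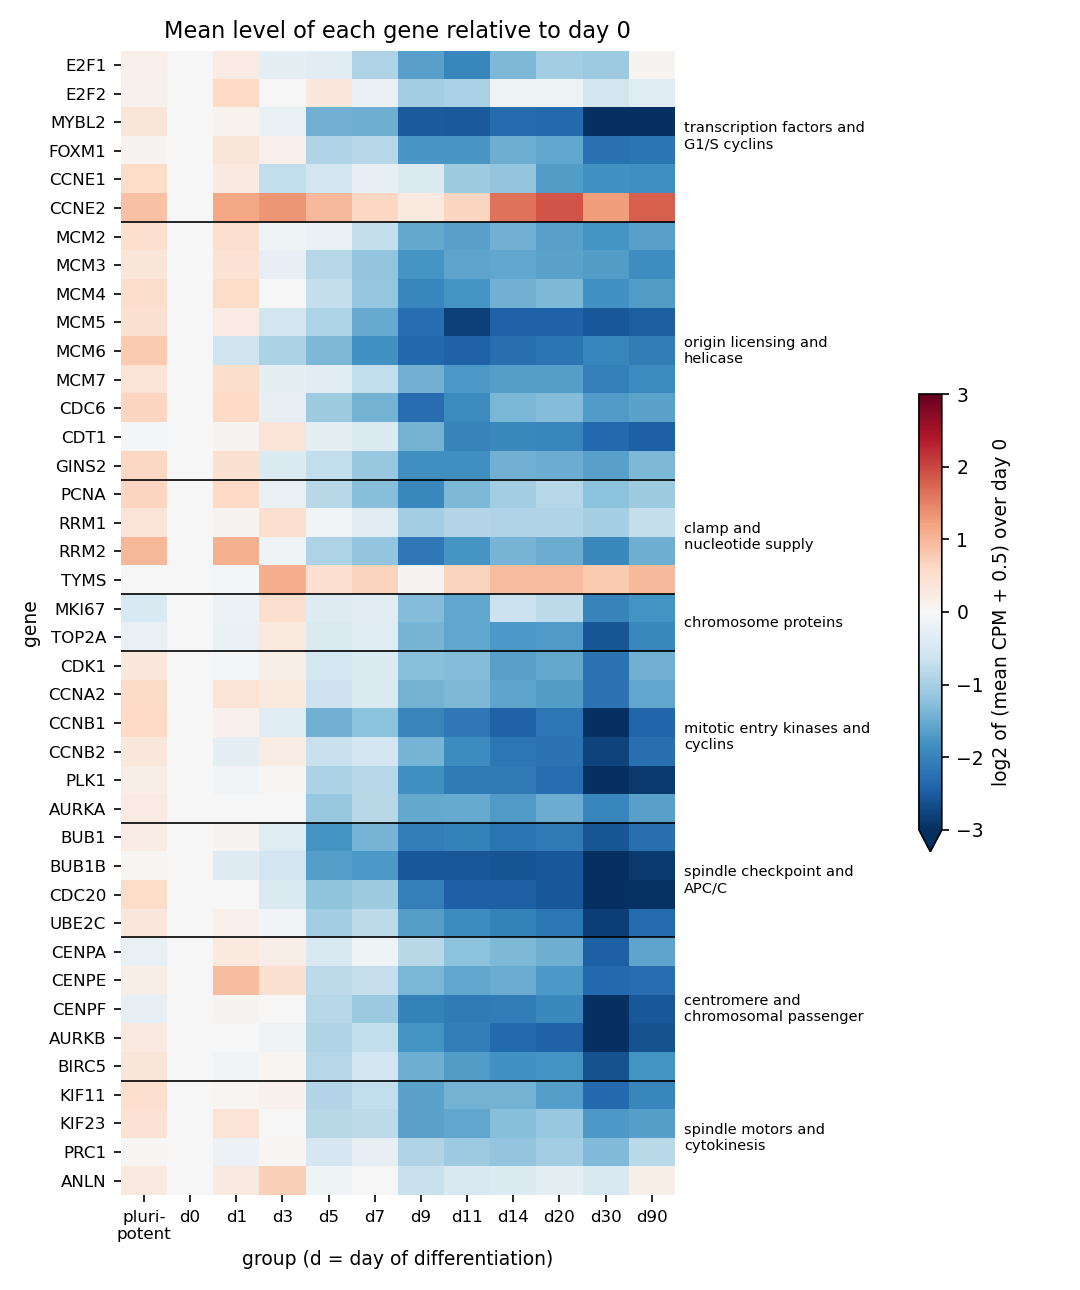
Mean CPM of each of the 40 genes in each group relative to day 0, as log2 of (mean CPM + 0.5) over the day 0 value, with genes in rows by role and groups in columns. Most rows turn to blue (lower) from day 5 on, most mitosis genes darkest at day 30, while CCNE2 stays above its day 0 level.

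Day 0 cells, confluent on LN-521 with LN-221, were compared with pluripotent cells on LN-521. The RNA of most members was slightly lower at day 0, and none passed the test. edgeR called 0 of the 40 genes, against 2.91% of all tested genes (2.73% higher and 0.183% lower), with 2 members at an unadjusted p under 0.05 (20.5% of all genes) and 0 called by DESeq2 or by limma on TPM. The log2 fold changes were below 0 for 35 of 40 members with a median of -0.35, where that of all genes was 0.00. The 5 above 0 were MKI67, TOP2A, CENPA, CENPF and CDT1. The CPM ranges of 31 members did not overlap between the groups, and of all genes 24.2% lay lower and 23.6% higher without overlap. Coating and stage of culture differ together between these groups and cannot be told apart.

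A day after CHIR99021, 1 of 40 members was called, CCNE2, the gene of cyclin E2, against 13.5% of all genes (3.86% higher). Its CPM went from 2.01, 1.83 and 2.28 at day 0 to 4.51, 6.01 and 5.11 at day 1, and no wells overlap. The log2 fold change was 1.35 ± 0.39 (SE, adjusted p = 0.0107). INTS8 lies across CCNE2 on the other strand with many more counts, so its call is uncertain, and limma on TPM does not give it (0 members called). Of the replication genes 17 of 19 were above 0 with a median log2 fold change of 0.44. The mitosis genes had 10 of 21 above 0 and a median of -0.01, and all tested genes had a median of -0.03. RRM2, a subunit of ribonucleotide reductase that makes deoxyribonucleotides, stood at 87.9, 87.1 and 92.9 CPM at day 0 and 184, 207 and 175 CPM at day 1, again without overlap. Its log2 fold change of 1.08 ± 0.56 (SE, adjusted p = 0.174) did not pass. MCM6 was the replication gene farthest below 0, at -0.59 ± 0.33 (SE, adjusted p = 0.209), with 216, 222 and 217 CPM at day 0 and 139, 161 and 135 CPM at day 1. Medium and inhibitor changed together between these days and cannot be told apart.

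From day 1 to day 3, 2 members passed, both replication genes and in opposite directions, against 11% of all genes higher and 6.8% lower. TYMS, thymidylate synthase, stood at 20.6, 20.1 and 23.6 CPM at day 1 and 49.0, 48.3 and 44.6 CPM at day 3. It rose by a log2 fold change of 1.14 ± 0.42 (SE, adjusted p = 0.0351). CCNE1, the gene of cyclin E1, stood at 35.9, 45.4 and 31.5 CPM at day 1 and 21.5, 17.0 and 17.3 CPM at day 3 and had a log2 fold change of -1.02 ± 0.35 (SE, adjusted p = 0.0256). Neither gene's wells overlapped between the days. Leaving out day 1 well 1 or well 2, or day 3 well 2 or well 3, left 0 members called, and leaving out day 1 well 3 or day 3 well 1 left CCNE1 alone. The median log2 fold change was -0.63 over replication genes, of which 15 of 19 were below 0, and -0.08 over mitosis genes, of which 11 of 21 were, beside 0.07 over all genes. All 7 members with an unadjusted p under 0.05 were replication genes, and 38.4% of all genes had such a p.

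Between days 3 and 5, when IWP2 replaced CHIR99021, every mitosis gene was lower in each day 5 well than in any day 3 well. Of the 40 genes 5 fell and 0 rose, against 4.34% of all genes lower and 5.75% higher. The 5 were MYBL2, CCNB1, AURKA, BUB1 and CENPE, 4 of them mitosis genes. BUB1, a spindle checkpoint kinase, fell the most, from 179.9, 167 and 171 CPM to 70.0, 67.3, 62.3, 70.6 and 53.2 CPM. Its log2 fold change was -1.42 ± 0.40 (SE, adjusted p = 0.00998). CCNB1, cyclin B1, fell the least of the 5, from 211, 178 and 159.7 to 90.8, 96.6, 81.0, 84.8 and 81.0 CPM, at -1.08 ± 0.35 (SE, adjusted p = 0.0268). All 21 mitosis genes lay below 0 with a median of -0.89, and their wells did not overlap between the days for any of the 21, against 19.7% of all genes lower without overlap. Replication genes had a median of -0.59, with 17 of 19 below 0, and the median of all genes was -0.02. AURKA and BUB1 were called in every fit that left out a well. MYBL2, the only replication gene of the 5, was called in 0 of those 8 fits, and was also lost with RLE scaling and with lane as a term. CCNB1 was lost without any 1 of the day 3 wells or without day 5 well 3 or 5, and CENPE without day 3 well 1 or 3. PLK1 was called instead of MYBL2 without day 5 well 1, 2 or 4. Without day 3 well 1, 2 or 3 the count was 2, 3 and 2, and without day 5 well 3 or well 5 it was 3 each.

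No member was called between days 5 and 7, and all 40 had a lower fitted level at day 9 than at day 7. From day 5 to day 7 edgeR called 0 of 40, against 3.65% of all genes, with 2 at an unadjusted p under 0.05 (16.4% of all genes) and 0 by DESeq2 or limma. The median was -0.40 over replication and 0.15 over mitosis genes. From day 7 to day 9 all 40 members had a log2 fold change below 0, with a median of -0.83 where that of all genes was 0.00. Wells of the 2 days did not overlap for 35 members, against 4.17% of all genes lower without overlap. The unadjusted p was under 0.05 for 32 of 40 members, against 12% of all genes. Calls were few: 1 member fell, CDT1, against 0.261% of all genes lower. CDT1, which brings the helicase to origins, stood at 45.8, 48.1, 50.5, 45.0 and 63.0 CPM at day 7 and 26.5, 29.4, 23.6, 20.0 and 24.9 CPM at day 9, with no overlap. Its log2 fold change was -1.02 ± 0.23 (SE, adjusted p = 0.00935). Leaving out day 7 well 10 or day 9 well 4 ended this call, as did RLE scaling, DESeq2, limma and a fit of these groups alone, where the log2 fold change was under 1 in size. The fit of these groups alone called AURKB instead. In the lanes that held wells of both days the drop was seen each time, with 38, 39, 40 and 39 of 40 members lower in lanes 1, 2, 4 and 5.

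Over the whole stretch from day 0 to day 9, 33 of 40 members fell and 0 rose, against 14.6% of all genes lower and 17.1% higher. The 33 were 15 of 19 replication and 18 of 21 mitosis genes. The median log2 fold change was -1.63 over the 40 genes, -1.76 over replication and -1.55 over mitosis genes, and 0.08 over all genes. Wells of the 2 days did not overlap for 37 members, against 28.5% of all genes lower without overlap. The largest fall was that of BUB1B, the checkpoint protein BubR1, from 219, 228 and 214 CPM to 35.9, 33.1, 41.8, 40.7 and 34.4 CPM, at -2.57 ± 0.45 (SE, adjusted p = 1.01e-05). The smallest was that of RRM1, the large subunit of ribonucleotide reductase, at -1.06 ± 0.31 (SE, adjusted p = 0.00438). The 7 genes not called were E2F2, CCNE1, CCNE2, TYMS, CENPA, PRC1 and ANLN, of which CCNE2 and TYMS had values above 0. The reference itself differs between the fits, which differ in scaling and in the genes covered. On log2(TPM + 1) the median log2 fold change of all genes, 13664 in that fit, was -0.30 here. The same shift was 0.19 between days 9 and 30, -0.48 between days 9 and 90, -0.65 between days 30 and 90, -0.32 between days 3 and 5 and 0.39 between days 11 and 14. Relative to the median of all genes in the same fit, the members' median for day 9 against day 0 was -1.71 by edgeR and -1.45 on TPM. Within single lanes 38 of 40 members were lower at day 9, in lane 1 and in lane 4, the lanes with wells of both days.

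**Figure D3:**
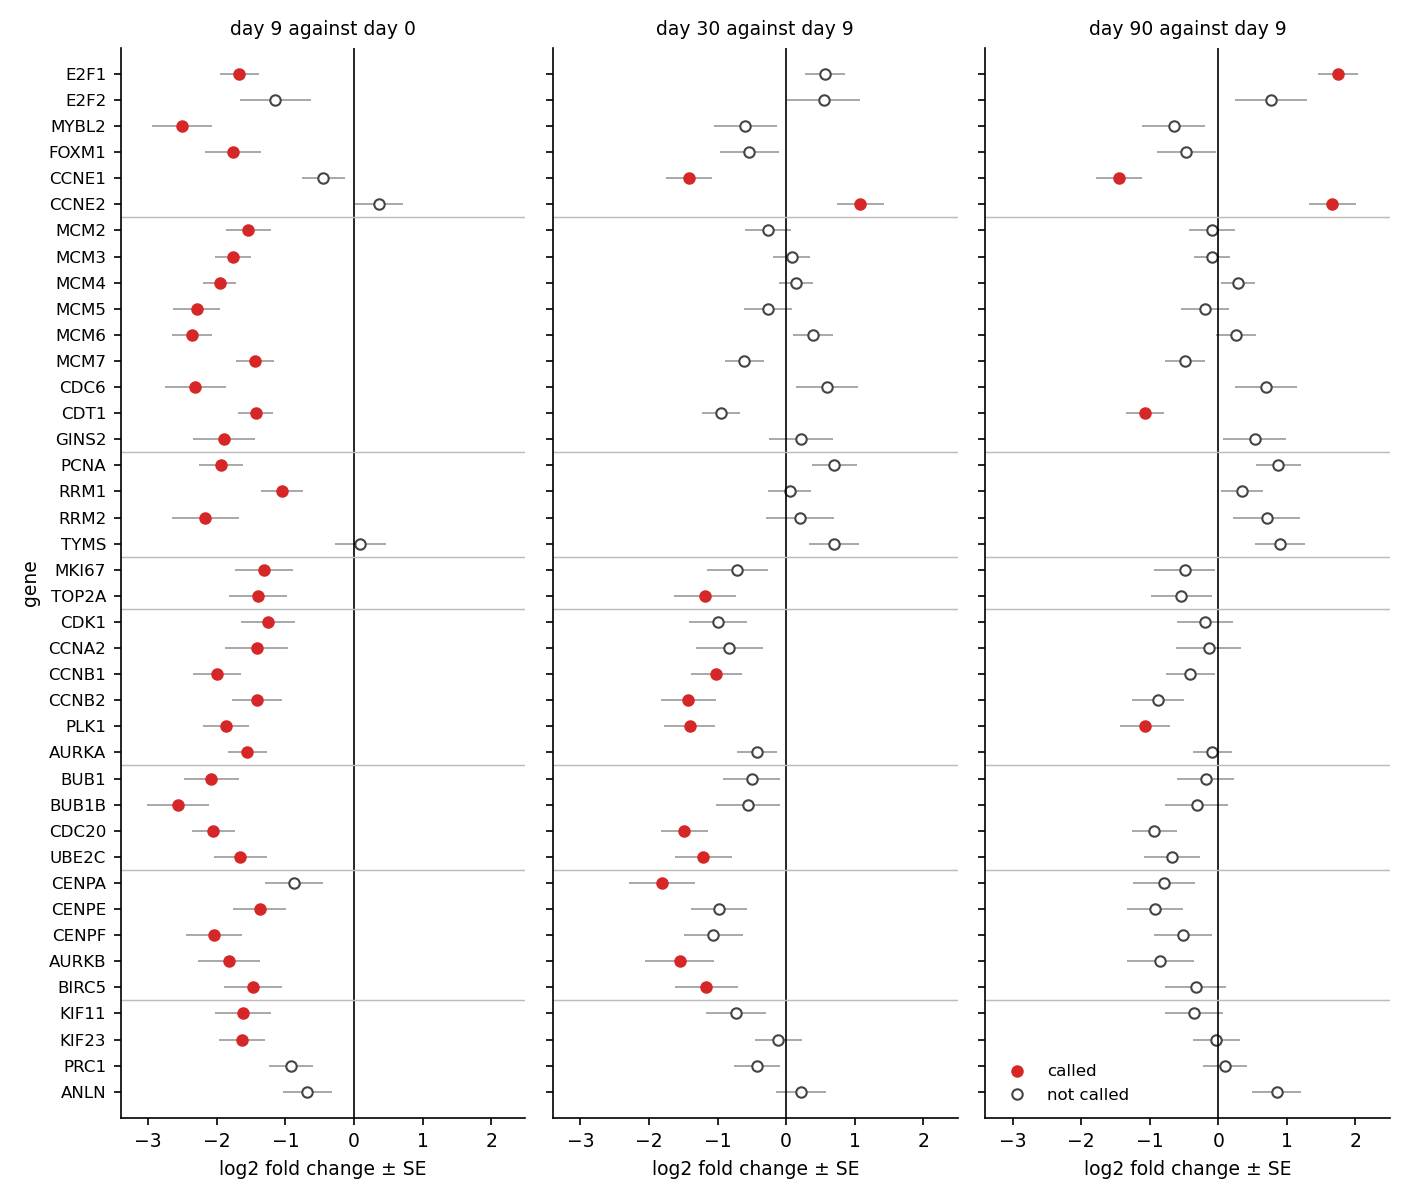
Log2 fold changes with their standard errors for each of the 40 genes in 3 comparisons (day 9 against day 0, day 30 against day 9, day 90 against day 9), with filled points for called genes. Nearly all genes lie to the left of 0 at day 9. At day 30 the called ones are mostly mitosis genes, while replication genes lie on both sides of 0, from -1.42 to 1.08.

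Among the transcription factors and G1/S cyclins, MYBL2 had the highest mean TPM over all 44 libraries, though at day 90 its mean of 2.38 TPM was below that of E2F1 (4.72 TPM). MYBL2 (B-MYB) helps to turn on late cell cycle genes. In CPM it stood at 278, 241 and 210.1 (pluripotent cells), 209.9, 173 and 183 (day 0), 212, 215 and 185 (day 1) and 190.4, 161 and 134 (day 3). At later days it was 85.5, 86.6, 66.2, 49.8 and 58.8 (day 5), 77.3, 75.9, 53.8, 53.5 and 79.2 (day 7) and 32.0, 29.7, 27.8, 35.9 and 40.2 (day 9), each of these wells below every well of the 4 earlier groups. At days 11, 14 and 20 it was 61.5, 56.8, 13.2, 14.3 and 15.4 (day 11), 42.8, 53.3 and 17.8 (day 14) and 14.7, 20.2 and 75.8 (day 20), and 22.4, 9.86 and 33.7 (day 30) and 27.9, 8.77 and 26.3 (day 90). From day 11 on, wells of the same day differ more than wells of day 0 and day 9 do within their days. MYBL2 fell from day 0 to day 9 by a log2 fold change of -2.51 ± 0.44 (SE, adjusted p = 1.17e-05). Its values against day 9 were -0.60 ± 0.46 (SE, adjusted p = 0.336) at day 30 and -0.65 ± 0.46 (SE, adjusted p = 0.280) at day 90, and neither passed. E2F1, an activator of replication genes, and FOXM1, an activator of mitosis genes, fell to day 9 as well, by log2 fold changes of -1.67 ± 0.28 (SE, adjusted p = 6.94e-06) and -1.76 ± 0.41 (SE, adjusted p = 4.60e-04). E2F2 did not pass, at -1.15 ± 0.52 (SE, adjusted p = 0.0664), and neither did CCNE1, at -0.44 ± 0.31 (SE, adjusted p = 0.238), or CCNE2, at 0.37 ± 0.35 (SE, adjusted p = 0.414).

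All 9 genes of origin licensing and the helicase fell from day 0 to day 9, by log2 fold changes between -2.36 for MCM6 and -1.43 for CDT1. MCM4, a subunit of the MCM2-7 ring that unwinds DNA, was at 452, 451 and 473 (pluripotent cells), 308, 316 and 328 (day 0), 447, 513 and 446 (day 1) and 337, 318 and 297 (day 3) CPM. Day 1 wells were above every day 0 well. At 209, 192, 166, 179.7 and 220.3 CPM on day 5, 147, 133, 122, 137 and 169 on day 7 and 75.3, 83.3, 76.2, 79.4 and 93.9 on day 9, MCM4 had no overlap between the wells of days 5 and 9. Later wells had 140.0, 126, 59.9, 65.9 and 67.5 (day 11), 97.8, 154 and 99.999 (day 14), 90.4, 87.3 and 195 (day 20), 133, 61.4 and 77.1 (day 30) and 127, 66.6 and 104 (day 90). All later wells were below the lowest day 0 well, and many were above the day 9 wells. The fall of MCM4 to day 9 was -1.96 ± 0.24 (SE, adjusted p = 2.30e-08), and its values against day 9 were 0.15 at day 30 and 0.28 at day 90. The other MCM genes had mean levels at day 9 of 67.9 ± 5.15 CPM (SD, n = 5) for MCM2, 107 ± 11.4 CPM (SD, n = 5) for MCM3, 55.0 ± 4.95 CPM (SD, n = 5) for MCM5, 42.4 ± 5.48 CPM (SD, n = 5) for MCM6 and 117 ± 9.81 CPM (SD, n = 5) for MCM7. CDC6, a loader of the ring, fell with a log2 fold change of -2.32 ± 0.45 (SE, adjusted p = 4.35e-05), and GINS2, a part of the active helicase, with a log2 fold change of -1.89 ± 0.45 (SE, adjusted p = 6.34e-04).

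Of the clamp and nucleotide supply genes, PCNA, RRM1 and RRM2 fell to day 9 and TYMS did not. PCNA is the ring that holds DNA polymerases on the template. It was at 246, 242 and 213 (pluripotent cells), 149.9, 145 and 153 (day 0), 230.3, 222 and 223 (day 1) and 147, 117 and 116 (day 3) CPM, with day 1 above both day 0 and day 3. At days 5, 7 and 9 it was at 91.2, 82.9, 74.0, 86.1 and 83.9, then 60.0, 59.2, 49.2, 51.4 and 85.5, then 32.8, 42.6, 31.4, 37.1 and 50.4 CPM. PCNA fell with a log2 fold change of -1.94 ± 0.33 (SE, adjusted p = 5.69e-06) between day 0 and day 9. Later wells had 103, 97.3, 29.1, 27.5 and 33.8 (day 11), 60.6, 91.5 and 63.4 (day 14), 71.1, 44.6 and 130.0 (day 20), 76.8, 47.0 and 65.5 (day 30) and 92.2, 33.6 and 87.7 (day 90) CPM. Most of these were above the day 9 wells, though each day from 11 to 90 has at least 1 well inside or below the day 9 range except day 14. Against day 9 PCNA was at 0.70 ± 0.33 (SE, adjusted p = 0.1004) at day 30 and 0.87 ± 0.33 (SE, adjusted p = 0.0323) at day 90, short of a call by size or by p. RRM2, the small subunit of ribonucleotide reductase, fell with a log2 fold change of -2.17 ± 0.49 (SE, adjusted p = 3.26e-04) to day 9. TYMS was at 21.9 ± 0.680 CPM (SD, n = 3) at day 0 and 23.3 ± 4.27 CPM (SD, n = 5) at day 9, with a log2 fold change of 0.09 ± 0.37 (SE, adjusted p = 0.859).

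The 2 chromosome proteins that define cycling cells, MKI67 and TOP2A, both fell to day 9. MKI67 (Ki-67) coats mitotic chromosomes and is absent from resting cells. Its CPM was 97.0, 105 and 89.2 (pluripotent cells), 147, 128 and 125 (day 0), 119.9, 120.4 and 117 (day 1) and 198, 198 and 174 (day 3), with day 3 the highest group. It was 99.0, 115, 147, 88.1 and 64.5 (day 5), 151, 97.5, 115, 111 and 56.8 (day 7) and 60.6, 46.9, 64.6, 61.5 and 34.6 (day 9). Day 9 wells lay below every well of the first 4 groups, while day 5 well 5 and day 7 well 10 lay inside the day 9 range. MKI67 fell from day 0 to day 9 with a log2 fold change of -1.32 ± 0.42 (SE, adjusted p = 0.00966). At later days it was 80.9, 77.8, 18.8, 23.5 and 23.6 (day 11), 138, 84.2 and 33.8 (day 14), 25.1, 42.3 and 165 (day 20), 32.1, 29.5 and 36.9 (day 30) and 38.6, 45.2 and 30.9 (day 90). Day 14 well 2 lay inside the range of day 0 and day 20 well 3 above it, and the day 30 and day 90 wells were all below the day 9 median. Against day 9, MKI67 was at -0.71 ± 0.45 (SE, adjusted p = 0.225) at day 30 and -0.49 ± 0.44 (SE, adjusted p = 0.408) at day 90.

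TOP2A, the topoisomerase that untangles sister chromatids, was at 512, 524 and 465 (pluripotent cells), 619.6, 564 and 564 (day 0), 548, 479.5 and 492 (day 1) and 776, 691 and 684 (day 3) CPM. Its day 3 wells were above all wells of the other 3 groups. It was at 480.1, 478, 407, 429.9 and 349 CPM on day 5, 592, 420.5, 400.0, 409 and 448 on day 7 and 235, 236, 242, 217 and 178 on day 9. Day 9 wells did not overlap with those of day 5 or day 7, and day 7 well 1 stood above the other wells of its day. TOP2A fell to day 9 with a log2 fold change of -1.40 ± 0.42 (SE, adjusted p = 0.00631). Wells after that had 308, 389, 87.9, 90.9 and 109 (day 11), 195, 261 and 73.9 (day 14), 66.1, 57.3 and 410.2 (day 20), 57.7, 92.5 and 143 (day 30) and 176, 145 and 136 (day 90) CPM. It fell again from day 9 to day 30, where no wells overlap, with a log2 fold change of -1.18 ± 0.45 (SE, adjusted p = 0.0435), a call that was lost in 6 of the 8 fits leaving out a well, with RLE scaling (adjusted p = 0.0622 by edgeR) and by limma on log2(TPM + 1) (adjusted p = 0.261). At day 90 it was at -0.54 ± 0.44 (SE, adjusted p = 0.357) against day 9.

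All 6 mitotic entry kinases and cyclins fell to day 9, between -1.25 for CDK1 and -1.99 for CCNB1 in log2 fold change. CCNB1, cyclin B1, is the partner of CDK1 that triggers entry into mitosis. It stood at 370.0, 349 and 349 (pluripotent cells), 235, 234 and 241 (day 0), 283, 232 and 265 (day 1) and 211, 178 and 159.7 (day 3) CPM. Day 5 wells, at 90.8, 96.6, 81.0, 84.8 and 81.0 CPM, were below every day 3 well. Day 7 had 115, 91.6, 82.9, 86.7 and 127 and day 9 64.0, 64.0, 58.2, 54.3 and 57.0 CPM. CCNB1 fell from day 0 to day 9 with a log2 fold change of -1.99 ± 0.35 (SE, adjusted p = 1.05e-05). Later wells had 77.5, 98.6, 31.1, 25.5 and 33.3 (day 11), 36.2, 66.0 and 29.1 (day 14), 31.04, 20.0 and 107 (day 20), 20.4, 37.1 and 30.5 (day 30) and 63.6, 30.1 and 40.7 (day 90) CPM. The day 30 wells were all below the day 9 wells, and the fall between them was -1.02 ± 0.37 (SE, adjusted p = 0.0329). PLK1, a kinase of spindle assembly, and AURKA, which matures spindle poles, fell to day 9 with a log2 fold change of -1.86 ± 0.34 (SE, adjusted p = 1.76e-05) and -1.55 ± 0.28 (SE, adjusted p = 1.63e-05). CCNA2 and CCNB2, cyclins A2 and B2, both fell with a log2 fold change of -1.42, at 49.4 ± 6.49 CPM (SD, n = 5) and 36.7 ± 3.67 CPM (SD, n = 5) on day 9.

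All 4 genes of the spindle checkpoint and the APC/C fell to day 9, with a median log2 fold change of -2.07. UBE2C is the APC/C's ubiquitin-conjugating enzyme. It was at 135, 137 and 127 (pluripotent cells), 107, 103 and 104 (day 0), 133, 96.1 and 117 (day 1) and 107, 94.0 and 94.1 (day 3) CPM. Days 5, 7 and 9 had 55.6, 55.3, 45.6, 51.4 and 43.6, then 75.2, 57.1, 49.3, 51.4 and 67.6, then 36.4, 39.1, 32.5, 27.9 and 29.8 CPM, with days 5 and 7 overlapping and day 9 below both. UBE2C fell to day 9 with a log2 fold change of -1.66 ± 0.38 (SE, adjusted p = 4.57e-04). Later wells had 41.1, 52.3, 17.2, 13.3 and 16.5 (day 11), 26.7, 34.4 and 14.4 (day 14), 12.05, 7.11 and 49.1 (day 20), 6.11, 17.0 and 20.1 (day 30) and 27.8, 14.5 and 19.9 (day 90) CPM. All day 30 wells lay below the day 9 wells, and UBE2C fell between them with a log2 fold change of -1.21 ± 0.42 (SE, adjusted p = 0.0239). CDC20, the APC/C's activator, fell with a log2 fold change of -2.05 ± 0.31 (SE, adjusted p = 9.44e-07) to day 9 and with a log2 fold change of -1.48 ± 0.34 (SE, adjusted p = 8.82e-04) from day 9 to day 30. BUB1, a checkpoint kinase, fell to day 9 with a log2 fold change of -2.08 ± 0.40 (SE, adjusted p = 4.17e-05) and had -0.50 ± 0.42 (SE, adjusted p = 0.369) at day 30.

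Of the 5 centromere and chromosomal passenger genes, 4 fell to day 9 and CENPA, the centromere's histone H3 variant, did not pass, at -0.87 ± 0.42 (SE, adjusted p = 0.0825). AURKB is the kinase of the passenger complex, which corrects faulty spindle attachments. Its CPM was 87.9, 88.3 and 92.5 (pluripotent cells), 70.7, 78.9 and 73.5 (day 0), 74.7, 73.0 and 73.4 (day 1) and 78.7, 71.1 and 58.9 (day 3). It was 41.8, 45.5, 35.5, 40.6 and 34.7 (day 5), 52.0, 44.3, 34.9, 36.6 and 52.4 (day 7) and 20.3, 27.5, 20.0, 16.8 and 20.8 (day 9), each day 9 well below each well of the earlier groups. AURKB fell with a log2 fold change of -1.82 ± 0.45 (SE, adjusted p = 0.00105) to day 9. Later wells had 27.0, 29.2, 9.34, 8.72 and 11.5 (day 11), 13.1, 25.8 and 4.62 (day 14), 4.26, 2.74 and 33.6 (day 20), 4.36, 5.37 and 12.2 (day 30) and 15.6, 6.82 and 12.5 (day 90) CPM. Day 14 wells lay inside or below the day 9 range, day 20 well 3 lay above it, and all wells of days 30 and 90 lay below it. AURKB fell from day 9 to day 30 with a log2 fold change of -1.55 ± 0.51 (SE, adjusted p = 0.0174). BIRC5 (survivin), also of the passenger complex, fell with a log2 fold change of -1.48 ± 0.43 (SE, adjusted p = 0.00412) to day 9, and CENPF, a kinetochore protein, with a log2 fold change of -2.04 ± 0.41 (SE, adjusted p = 7.70e-05).

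The 4 spindle motor and cytokinesis genes had the smallest falls among the mitosis roles, with a median of -1.27 to day 9. KIF11, a motor that separates the spindle poles, and KIF23, a motor of the spindle midzone, fell with a log2 fold change of -1.62 ± 0.41 (SE, adjusted p = 0.00119) and -1.63 ± 0.33 (SE, adjusted p = 8.81e-05). PRC1, which bundles midzone microtubules, was at 100.1, 107 and 99.0 (pluripotent cells), 99.0, 99.6 and 100.5 (day 0), 92.7, 83.4 and 89.4 (day 1) and 106, 108 and 99.2 (day 3) CPM. It was 72.5, 77.0, 66.7, 75.8 and 61.6 (day 5), 101, 77.5, 74.7, 75.4 and 90.3 (day 7) and 52.5, 58.4, 53.6, 50.4 and 49.2 (day 9), and day 9 lay below all earlier wells. Its log2 fold change to day 9 was -0.92 ± 0.32 (SE, adjusted p = 0.0169), short of the size limit. PRC1 later stood at 65.7, 77.2, 28.5, 31.8 and 30.8 (day 11), 42.2, 63.8 and 25.2 (day 14), 23.2, 19.8 and 102 (day 20), 28.5, 39.3 and 50.4 (day 30) and 67.5, 46.0 and 55.9 (day 90) CPM. ANLN, anillin of the cleavage furrow, was at 117 ± 6.52 CPM (SD, n = 3) at day 0, 72.9 ± 5.73 CPM (SD, n = 5) at day 9 and 131 ± 18.2 CPM (SD, n = 3) at day 90. By the edgeR test defined above ANLN was not called in any of these comparisons. Among the alternatives, limma on TPM called it lower from day 0 to day 9. With the well number as a block it was called higher from day 9 to day 90.

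Wells of a group agreed closely on these genes up to day 9 and differed widely at days 11, 14, 20 and 30. The median over the 40 genes of the SD between wells of log2 CPM was 0.07 at day 0 and 0.20 at day 9. Over the 10623 genes with a mean of at least 10 CPM it was 0.08 and 0.20. At day 11 the members' median was 0.88 beside 0.23 for those abundant genes, at day 14 0.72 beside 0.37, and at day 20 1.25 beside 0.36. At day 30 it was 0.70 beside 0.40, and at day 90 0.43 beside 0.28. The members above the 90th percentile of the abundant genes numbered 0 on day 0, 3 on day 9 and 29 on day 11. They numbered 18 on day 14, 36 on day 20, 10 on day 30 and 6 on day 90. The plot of spread between wells shows the members above the other genes after day 9.

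**Figure D4:**
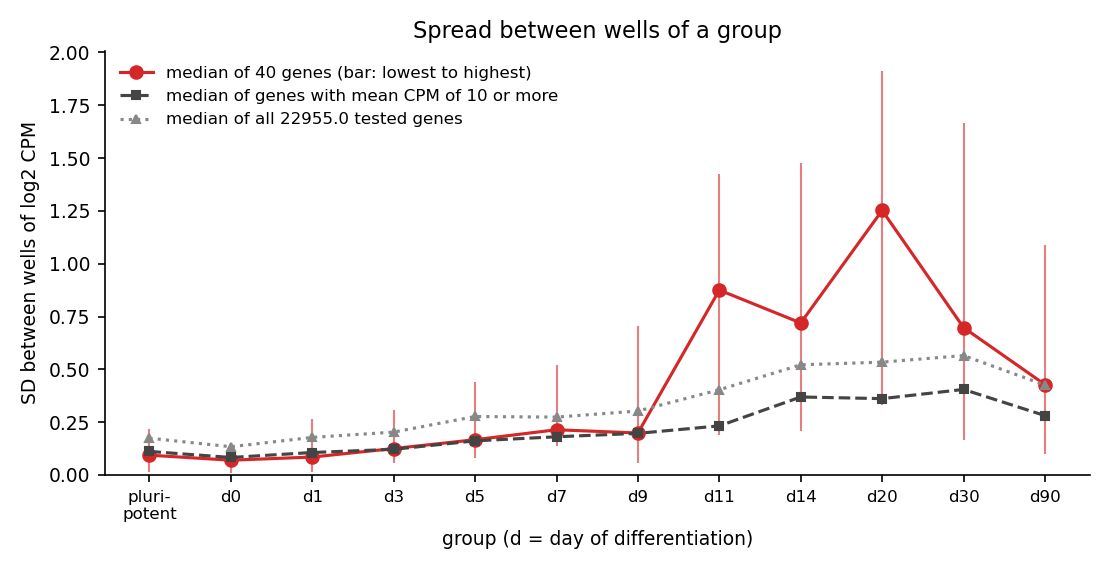
SD between the wells of each group of log2 CPM: the median over the 40 genes with bars from their lowest to highest, the median over genes with a mean of at least 10 CPM, and the median over all 22955 tested genes. The line of the 40 genes follows that of the abundant genes through day 9, and the 40 genes stand above the others at days 11, 14, 20 and 30.

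At day 11 the summed level was 2837, 3070.1, 1056, 1053 and 1174 CPM in wells 1, 2, 5, 6 and 7. For all 40 members wells 1 and 2 were the highest pair, an order that 34.3% of all tested genes share. TOP2A, at 308, 389, 87.9, 90.9 and 109 CPM, and PCNA, at 103, 97.3, 29.1, 27.5 and 33.8 CPM, show it. Other measures moved with it. The summed endoderm and liver markers were 4504, 8596, 171, 167 and 158 CPM, the cardiomyocyte markers 12682, 7289, 26177, 29513 and 23399 CPM and the fibroblast and epicardium markers 2938, 5738, 1785, 1594 and 2206 CPM. RNA integrity numbers were 8.6, 8, 9.5, 9.2 and 9.4, each well was on a different lane, and wells 1 and 2 had the lowest totals. Their part in the difference was not tested. Against day 9 edgeR called 0 of 40 members, against 1.63% of all genes, with 2 at an unadjusted p under 0.05 (17.2% of all genes) and 0 by DESeq2 or limma. Within lanes, 35 and 37 of 40 members were higher at day 11 in lanes 1 and 2, and 40 and 39 were lower in lanes 4 and 5. The supplement also changed between days 9 and 11, so time and supplement cannot be told apart.

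At day 14 the summed level was 1994, 2716 and 1113 CPM in wells 2, 3 and 6. Well 3 was the highest for 36 of 40 members (34.5% of all genes) and well 6 the lowest for 36 (32.2% of all genes). MKI67 departs from this order, at 138, 84.2 and 33.8 CPM. The RNA integrity numbers were 7.4, 9.8 and 8.2, and the total counts 8679308, 27629409 and 14148880. The cardiomyocyte sum of 17096, 19018 and 31458 CPM was highest in well 6, whose summed endoderm and liver markers were the lowest (3835, 4008 and 2431 CPM). The part of these measures in the difference was not tested. Against day 11 edgeR called 0 members, against 0.697% of all genes, with 3 at an unadjusted p under 0.05 (18.2% of all genes). DESeq2 called 1 (CCNE2) and limma 0. Leaving out day 11 well 1 or 2, or day 14 well 3, also gave 1 call, CCNE2 higher.

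At day 20 the spread was the widest of all groups, and well 3 stood apart. The summed level was 1031, 882 and 3972 CPM in wells 1, 2 and 3. Well 3 was the highest for 40 of 40 members, and for 34.1% of all genes. It exceeded the next well by a median of 3.91 times, from 1.12 times for CCNE1 to 7.90 times for AURKB. The median was 3.19 times over replication and 4.63 times over mitosis genes. AURKB stood at 4.26, 2.74 and 33.6 CPM and PRC1 at 23.2, 19.8 and 102 CPM. In well 3, PRC1 lay above the day 0 wells. Well 3 also had the highest cardiomyocyte sum (19778, 21249.7 and 35558 CPM) and endoderm and liver sum (1758, 931 and 3982 CPM). It had the lowest fibroblast and epicardium sum (8709, 2705 and 1668 CPM) and the highest RNA integrity number (8.2, 8 and 9.3). Total counts were 27221714, 6937136 and 27003888 in wells 1, 2 and 3. Their part in the difference was not tested. Against day 14 edgeR called 0 of 40 members, against 0.0479% of all genes, with 0 at an unadjusted p under 0.05 (5.87% of all genes) and 0 by DESeq2 or limma. Leaving out day 20 well 3 gave 3 lower calls, PLK1, BUB1 and AURKB.

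**Figure D5:**
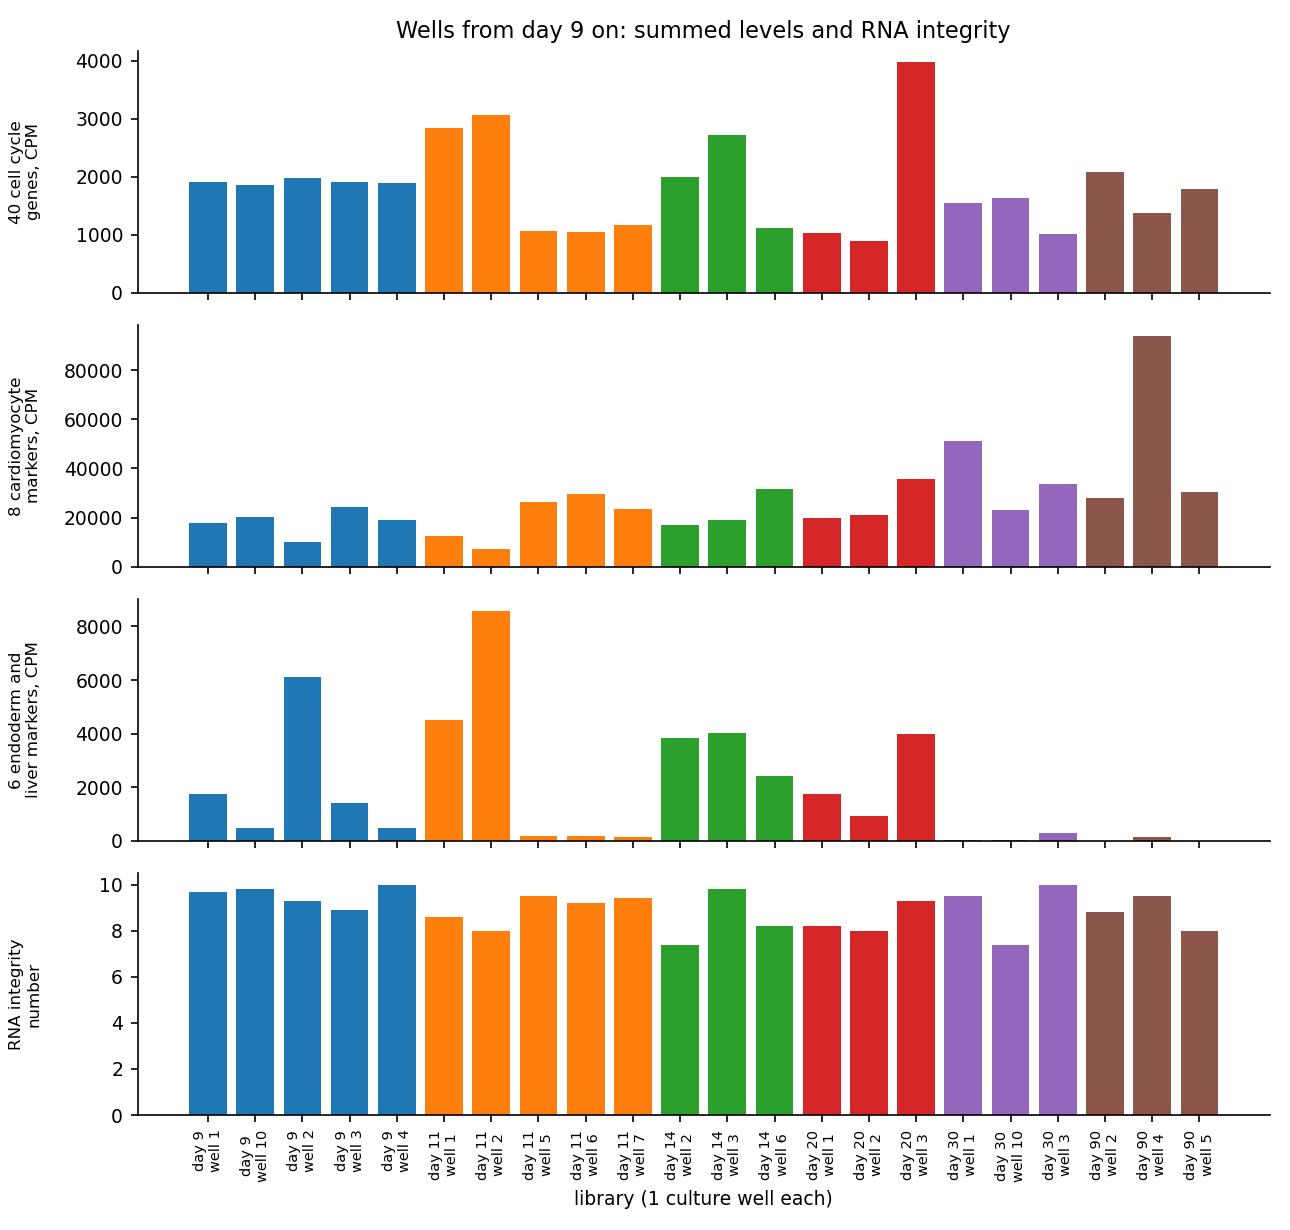
Summed CPM of the 40 genes, of 8 cardiomyocyte markers and of 6 endoderm and liver markers, and the RNA integrity number, for each well from day 9 to day 90, with colours by day. The 5 day 9 wells stand level in the top row at 1849.9 to 1983 CPM, while day 11 wells 1 and 2, day 14 well 3 and day 20 well 3 stand above the other wells of their days.

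At day 9 the marker sums differed between wells more than the members' sum did. Across wells 1, 2, 3, 4 and 10 of day 9 the endoderm and liver sum was 1750.3, 6109.6, 1406, 473 and 473 CPM and the cardiomyocyte sum 17697, 10157, 24299.9, 18845 and 20149 CPM. The members' sum over the same wells was 1909, 1983, 1902, 1896 and 1849.9 CPM.

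At day 30 calls were mostly of mitosis genes. From day 9 to day 30, 10 of 40 members fell and 1 rose, against 9.25% of all genes lower and 9.69% higher. Those that fell were CCNE1 and the 9 mitosis genes TOP2A, CCNB1, CCNB2, PLK1, CDC20, UBE2C, CENPA, AURKB and BIRC5. CENPA fell the most, from 8.45, 14.5, 8.06, 6.12 and 7.19 CPM to 1.75, 1.81 and 4.22 CPM, at -1.81 ± 0.48 (SE, adjusted p = 0.00355), and CCNB1 the least, at -1.02 ± 0.37 (SE, adjusted p = 0.0329). The overlap of CENPA with SLC35F6 makes its value uncertain. CCNE1 went from 25.3, 43.1, 18.6, 12.4 and 14.8 CPM to 10.3, 7.50 and 7.73 CPM, at -1.42 ± 0.33 (SE, adjusted p = 0.00112). The median was -0.995 over mitosis genes, with 20 of 21 below 0, and 0.15 over replication genes, with 7 of 19 below 0, beside 0.07 over all genes. For 14 members all day 30 wells lay below all day 9 wells, as for 14.3% of all genes. Several calls were lost when a well was left out: CCNB1 without day 9 well 1 or 2 or day 30 well 1 or 10, CCNE2 without day 9 well 3 or day 30 well 1 or 10, AURKB without day 30 well 1 or 3, and UBE2C without day 30 well 1. TOP2A was lost without day 9 well 1, 2, 3 or 4 or day 30 well 1 or 3, and CCNB2 and PLK1 without day 30 well 1. BIRC5 was called in 0 of the 8 fits leaving out a well, and was also lost with RLE scaling, lane as a term and RNA integrity as a covariate. CCNB1 was also lost with RLE scaling and DESeq2.

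The calls at day 30 depend on well 1. The replication sum was 1075, 422 and 742 CPM and the mitosis sum 477, 587 and 889 CPM in wells 1, 3 and 10, so that well 1 had the highest replication and the lowest mitosis sum. Their ratio was 2.25, 0.719 and 0.835. Without well 1 the calls were 6 lower, of which 4 were replication genes (CCNE1, MCM5, MCM7 and CDT1) and 2 mitosis genes (CDC20 and CENPA). The cardiomyocyte sum was 51186, 33838 and 23253 CPM and the RNA integrity numbers 9.5, 10 and 7.4, and their part was not tested. Well 10 of day 30 is 1 of 3 libraries under 12000000 counts, and without those 3 libraries 14 members were called lower. On TPM limma called 1 member, CDC20 lower. In lane 2, 25 of 40 members were lower at day 30 than at day 9, and in lane 4, 21 of 40. From day 20 to day 30 edgeR called 0 members, against 2.02% of all genes, with 6 at an unadjusted p under 0.05 (15.6% of all genes), all mitosis genes, and 0 by DESeq2 or limma. Leaving out day 20 well 2 or day 30 well 3 gave 1 lower call, CDC20.

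In the edgeR fit a few members differed between days 9 and 90, in both directions, and on TPM in 1 direction alone. From day 9 to day 90, 2 rose and 3 fell, against 11.9% of all genes higher and 12% lower. RLE scaling and DESeq2 each gave 2 higher and 1 lower, and limma on log2(TPM + 1) gave 0 higher and 8 lower. With the well number as a block, 5 were called higher (E2F1, CCNE2, PCNA, TYMS and ANLN) and 1 lower (CCNE1). E2F1 rose the most. It was at 8.99, 11.9, 6.96, 13.0 and 13.8 CPM at day 9, 23.5, 8.06 and 16.9 at day 30 and 34.5, 39.5 and 36.0 at day 90, with 32.0, 36.7 and 35.8 at day 0. In CPM the day 90 wells lay above all day 9 and day 30 wells and inside or above the range of day 0. In TPM they did not: E2F1 was at 4.10, 6.10 and 3.97 TPM on day 90, below every day 0 well (7.70, 8.61 and 8.78 TPM) and overlapping with day 9 (1.10, 1.72, 1.82, 4.36 and 1.92 TPM) and day 30 (3.71, 2.47 and 4.36 TPM). Its log2 fold change from day 9 was 1.74 ± 0.29 (SE, adjusted p = 5.25e-06), and by limma on log2(TPM + 1) it was 0.90 with an adjusted p of 0.0130, under the size limit. From day 30 to day 90 it was 1.18 ± 0.33 (SE, adjusted p = 0.0205) and E2F1 was the only member called there, against 5.09% of all genes. Leaving out day 30 well 3, day 90 well 4 or day 90 well 5 ended the call against day 30, as did limma on log2(TPM + 1). Fitting these groups alone also ended it, but that fit called only 1 gene higher and 1 lower of 17049 tested. CCNE2 rose from 2.39, 2.69, 1.93, 3.22 and 2.91 CPM to 10.3, 2.92 and 11.7 CPM, at 1.66 ± 0.34 (SE, adjusted p = 1.24e-04), with day 90 well 4 inside the day 9 range, and had risen by 1.08 ± 0.34 (SE, adjusted p = 0.0136) at day 30. The overlap of CCNE2 with INTS8 makes it uncertain here too.

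The 3 members that fell from day 9 to day 90 were CCNE1, CDT1 and PLK1. CCNE1 stood at 12.6, 3.83 and 8.52 CPM, at -1.45 ± 0.33 (SE, adjusted p = 6.21e-04). CDT1 stood at 12.1, 8.56 and 14.8 CPM, at -1.07 ± 0.28 (SE, adjusted p = 0.00218). PLK1 stood at 14.1, 12.2 and 10.9 CPM, at -1.07 ± 0.36 (SE, adjusted p = 0.0180). The median log2 fold change was -0.19 over members and -0.02 over all genes. Well 2 of day 90 was the highest for 32 members (36.2% of all genes), and well 4 the lowest for 32 (44.5%). The summed level was 2086, 1369 and 1783 CPM, the cardiomyocyte sum 27782, 93679 and 30514 CPM and the fibroblast and epicardium sum 12947, 2219 and 6661 CPM in wells 2, 4 and 5, and the part of these cells was not tested. Without well 4 the calls were E2F1, CCNE2 and PCNA higher and CCNE1 lower. With RLE scaling and with DESeq2 CDT1, at a log2 fold change of -0.99, and PLK1 were no longer called. Without well 5 PLK1 alone was lost. All day 90 wells lay below all day 9 wells for 9 members (19.6% of all genes) and above them for 3, E2F1, TYMS and ANLN (17.1% of all genes). In lane 4, 33 of 40 members were lower at day 90 than at day 9, and in lane 5, 23. The comparisons of days 30 and 90 with day 9 share the day 9 wells. In both, time and supplement differ together and cannot be told apart.

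Further genes of the same processes followed the members to day 9. Of 30 other replication genes 27 fell and 0 rose from day 0 to day 9, and of 30 other mitosis genes 26 fell and 0 rose, against 14.6% of all genes lower, with medians of -1.58 and -1.50. DSCC1, of the clamp loader that aids sister chromatid cohesion, fell the most of the replication list, at -2.78 ± 0.44 (SE, adjusted p = 2.01e-06), with 5.49 ± 1.09 CPM (SD, n = 5) against 37.8 ± 2.31 CPM (SD, n = 3). DLGAP5, a spindle protein, fell the most of the mitosis list, at -2.41 ± 0.48 (SE, adjusted p = 7.88e-05). From day 9 to day 30 the mitosis list had 0 rises and 5 falls, the largest that of CDC25C, the phosphatase that activates CDK1, at -1.79 ± 0.49 (SE, adjusted p = 0.00430). From day 9 to day 90 it had 0 rises and 1 fall, CDC25C, at -1.19 ± 0.47 (SE, adjusted p = 0.0399).

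Of 18 genes that restrain or time the G1 phase 6 rose and 1 fell from day 0 to day 9, against 17.1% of all genes higher and 14.6% lower. The 6 were CDK6, MEIS1 and the CDK inhibitors CDKN1A (p21), CDKN1B (p27), CDKN1C (p57) and CDKN2B (p15). MEIS1, a homeobox factor known to promote cell cycle arrest of heart muscle cells, rose the most, by 5.88 ± 0.26 (SE, adjusted p = 7.65e-20), with 78.1 ± 5.17 CPM (SD, n = 5) against 1.32 ± 0.174 CPM (SD, n = 3). RBL1 (p107), a relative of the retinoblastoma protein that is itself high in cycling cells, fell with a log2 fold change of -1.25 ± 0.30 (SE, adjusted p = 7.53e-04). CDKN1A stood at 7.95 ± 0.658 CPM (SD, n = 3) on day 0 and 31.3 ± 7.29 CPM (SD, n = 5) on day 9. By day 30 it was at 219.7 ± 122 CPM (SD, n = 3), and by day 90 at 270.0 ± 48.9 CPM (SD, n = 3). From day 9 to day 30, 5 rose and 1 fell, against 9.69% of all genes higher and 9.25% lower. The largest fitted rise was that of CDKN2A (p16 and ARF), with 1.02 ± 0.443 CPM (SD, n = 3) against 0.0638 ± 0.0478 CPM (SD, n = 5). Its day 9 mean lies below 3 counts per library, so no fold change is given. The fall was that of CDKN1C, at -1.84 ± 0.44 (SE, adjusted p = 0.00129). From day 9 to day 90, 6 rose and 1 fell, against 11.9% of all genes higher and 12% lower. CDKN2C (p18) rose the most, by 5.08 ± 0.70 (SE, adjusted p = 2.52e-07), with 9.18 ± 3.45 CPM (SD, n = 3) against 0.268 ± 0.0352 CPM (SD, n = 5), and CDKN1C fell, with a log2 fold change of -1.35 ± 0.43 (SE, adjusted p = 0.0109).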

How the data were processed

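RNA of 44 culture wells was measured by stranded total RNA sequencing with the TruSeq kit, per the labels' protocols. Per the submitters' processing notes, cutadapt, STAR 2.5.2b, RSEM 1.2.31 and build hg38 were used. The gene annotation and the use of strand in counting are not given in the sources used here. The authors deposited estimated counts per gene, of which 93.8% of values were whole, TPM values, and a sheet with the RNA integrity number (a quality score) and the sequencing lane of each library. Symbols came from GENCODE release 29, which held 56769 of the 60499 gene identifiers.

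Counts were rounded. Genes were filtered with filterByExpr, scaled by TMM and fitted with edgeR 4.0.16 (glmQLFit and glmQLFTest, R 4.3.3) over all 44 libraries and 12 groups, with 14 comparisons and p-values adjusted over all 22955 genes. Alternatives were RLE scaling, no filter, the well number as a block, only the groups compared, DESeq2 1.42.0, limma 3.58.1 on log2(TPM + 1) for genes with a mean of at least 1 TPM, and each well left out. Lane as a term, RNA integrity as a covariate, and leaving out the 3 libraries under 12000000 counts were chosen after seeing the data. The edgeR script was tested on simulated data. The well-to-well SD used log2 CPM with a prior count of 2.

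Total counts were 6937136 to 33498022 per library. Among 64 pairs of wells of 1 group, the smallest squared difference was 5.38 times the sampling variance, so none was treated as a repeat. Precision limits that rest on counts cover counting error only. Numbers shared between groups were checked for pairing, and no comparison with 3 or more pairs had every correlation over 0.1. With 2 pairs each, days 11 and 14 (0.102 to 0.342) and days 14 and 20 (0.553 to 0.611) did. Whether wells of the same number are linked there was not tested.

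The members, the lists and the comparisons were chosen with earlier results of these data known. Values in every well are given for MKI67, TOP2A, MYBL2, MCM4, PCNA, CCNB1, UBE2C, AURKB and PRC1. In each comparison the called members with the largest and smallest change and those against the majority are named, and in each list of further genes the largest called rise and fall of the 3 long comparisons, except that the list of other replication genes is not reported here for days 30 and 90. Other named genes were picked for their roles after their values were seen.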

Additional observations from a re-analysis of the deposited data

Results flagged for a closer look

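Of 44 checks of a gene's CPM in a group of 5 wells (days 5, 7, 9 and 11), 1 had a well far from the others. TOP2A at day 7 was highest in well 1, at 592 CPM, and the next well had 448 CPM, a gap of 0.749 of the group's range against a critical value of 0.71. Chance gives about 1 such well in 20 checks.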

How the results depend on the processing

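None of the 26 called single-gene results that were varied, and no summed level, changed its direction under any alternative run. Uncalled values of named genes were not part of this check. Medians over the 40 genes did change direction. The balance of calls between days 9 and 90 changed too. It was 2 higher and 3 lower, 5 and 1 with the well number as a block, and 0 and 8 by limma on log2(TPM + 1). The median log2 fold change between days 30 and 90 was 0.32, and -0.42 on TPM, where the median of all genes was -0.65. With the well number as a block the median went from -0.19 to 0.01 between days 9 and 90, from -0.07 to 0.38 between days 9 and 11, from 0.05 to -0.11 between days 5 and 7 (-0.19 on TPM), from 0.05 to -0.07 between days 11 and 14 (-0.01 with lane as a term) and from 0.01 to -0.37 between days 14 and 20. Between days 14 and 20 it was also below 0 under all other alternatives that used every library, -0.41 on TPM being the lowest. The count of members called from day 0 to day 9 was 33, 33 to 34 with each well left out and 32 to 35 under the other alternatives. With each well left out the count was 0 for day 0 and pluripotent cells, days 5 and 7 and days 9 and 11, and 1 between days 0 and 1. It was 0 to 1 between days 1 and 3, 2 to 5 between days 3 and 5, 0 to 1 between days 7 and 9, 0 to 1 between days 11 and 14, 0 to 3 between days 14 and 20, 0 to 1 between days 20 and 30, 0 to 1 between days 30 and 90, 6 to 12 between days 9 and 30 and 4 to 6 between days 9 and 90. By limma on log2(TPM + 1) the counts were 0 between days 0 and 1, 0 between days 1 and 3, 8 between days 3 and 5, 0 between days 7 and 9, 0 between days 30 and 90, 1 between days 9 and 30 and 8 between days 9 and 90. With RLE scaling and with DESeq2 they were 0 between days 7 and 9 and 3 between days 9 and 90, and DESeq2 gave 1 between days 11 and 14. With only the groups compared they were 2 between days 0 and 1 and 0 between days 30 and 90, and with lane as a term 3 between days 3 and 5. The cause was not tested. With the well number as a block they were 1 between days 1 and 3, 2 between days 3 and 5 and 2 between days 7 and 9, and the counts of the other comparisons stayed within 1.5 times. The block is a weak check: its pair correlations ran from -0.18 to 0.16 between days 9 and 30, and from 0.55 to 0.61 over 2 pairs between days 14 and 20. Of the single-gene values and sums recomputed, 351 kept their call, 69 lost it with the same direction and 3 sums moved. The log2 ratio of the summed level was -1.68 between days 0 and 9 (-1.92 as TPM, -1.54 as mean log2 CPM) and -0.13 between days 9 and 90 (-0.81 as TPM). Groups of 3 wells that differ several-fold limit what can be called at days 14, 20 and 30.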
